A study of Homo sapiens with 4 samples.

Results

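The mitochondrial genome of human cells holds 37 genes, which code for 13 mRNAs, 2 rRNAs and 22 tRNAs, and these genes are described here in sorted cells of a cardiac differentiation. Members were the genes of the deposited count table whose Ensembl identifier has a symbol starting with MT-, 37 of 60234 genes. Of these members, 20 had a read in any library and 16 had at least 4 reads in all 4 libraries, namely the 13 mRNAs, both rRNAs and MT-TP. The cells were of 1 reporter line, NKX2.5:GFP (NKX2.5 eGFP/w), derived from human embryonic stem cells, in which eGFP was placed at the locus of the cardiac transcription factor NKX2-5 next to a wild-type allele. They were differentiated as spin embryoid bodies and received either retinoic acid (RA, 1 µM) or its solvent DMSO (control, CTR) from day 4 to day 7. On day 31 both cultures were sorted on GFP, and 1 RNA-seq library was made of each of the 4 populations. All 4 groups share the reporter line and the protocol, and the RA and CTR populations come from separate cultures, so that RA and culture cannot be told apart. Each group has 1 library and so no replicate check, and no test between groups was made. A fit that adds the effects of fraction and culture, with their interaction taken as error, was not run.

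Mitochondrial RNA is made inside the organelle by a polymerase of its own. Transcription of the heavy strand gives the rRNAs, most tRNAs and every mRNA but MT-ND6, and transcription of the light strand gives MT-ND6 and the remaining tRNAs. The long transcripts are cut at the tRNAs that lie between the other genes, and most of the mRNAs then receive short poly(A) tails, which complete the stop codon of some of them. All mRNAs code for membrane subunits of respiratory complexes I, III, IV and V, whose other subunits are made from nuclear genes, and heart muscle is among the tissues richest in mitochondria.

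The CTR GFP-negative library was shallow, with 4371101 counted reads against 26222787 to 28643091 in the others, which were up to 6.55 times as deep. A count of 3 reads was taken as the floor of detection and corresponded to 0.105 to 0.117 CPM (reads relative to library size scaled by TMM) in the deep libraries and to 0.639 CPM in the CTR GFP-negative one. As a check of the labels, 10 of 10 cardiomyocyte markers were at least 2-fold higher in GFP-positive cells of both cultures, with summed levels of 24774 (CTR) and 24147 CPM (RA) against 1177 and 633 CPM in GFP-negative cells. Intervals below are 95% intervals of the counting error in a single library and hold no spread between cultures.

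The genes lie without gaps for much of the genome, which matters for counting. Of the 16569 bases of the mitochondrial chromosome in GRCh37, 1211 lie in no annotated gene, and 5 neighbouring pairs share bases. The authors counted without strand in the intersection-nonempty mode, in which a read is given to a gene only when no base of it belongs to another gene alone. Reads across a gene border are therefore not counted, and the shorter a gene is, the larger is the part of its fragments that reach the neighbour. MT-ATP8, a subunit of the ATP synthase, is the shortest mRNA with 207 bases (chrM:8366-8572, plus strand), and its last 46 bases are also the start of MT-ATP6. It is shown in full, 5′ to 3′, since its level behaved unlike that of the other mRNAs, with the bases shared with MT-ATP6 in capitals.
MT-ATP8: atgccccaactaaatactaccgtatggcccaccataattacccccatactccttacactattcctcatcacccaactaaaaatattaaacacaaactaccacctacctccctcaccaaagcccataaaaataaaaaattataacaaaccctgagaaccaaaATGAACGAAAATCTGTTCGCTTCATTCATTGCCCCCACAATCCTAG
The mRNA of MT-ND4L (297 bases, chrM:10470-10766) shares its last 7 bases with MT-ND4 (chrM:10760-12137). The end of MT-ND4L and the start of MT-ND4, 30 bases of each, are given with the shared bases in capitals.
MT-ND4L: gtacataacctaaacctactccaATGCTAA
MT-ND4: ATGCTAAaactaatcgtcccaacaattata
In 6 of the 13 mRNAs the annotated gene ends within a codon, 5 with T and 1 with TA, the bases that a poly(A) tail turns into the stop codon TAA. The last 30 bases of 3 of them, those with the most reads of complexes I, III and IV among the 6, show the incomplete codon in capitals.
MT-ND4: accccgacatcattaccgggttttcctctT
MT-CO3: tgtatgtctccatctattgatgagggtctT
MT-CYB: taattgaaaacaaaatactcaaatgggccT
MT-ND6 (chrM:14149-14673, minus strand) was the only light-strand mRNA, with 35.6% G and 7.05% C, whereas the other 12 mRNAs held 6.28% to 16.2% G and 29.5% to 36.0% C. All 37 sequences were found in the GENCODE transcripts lifted to GRCh37, with lengths equal to the annotated ones. The mitochondrial sequence in the custom hg19 of the authors may differ from this one, since its version is not given in the sources used here.

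Mitochondrial genes took 14.1% (interval 14.07% to 14.10%) of the counted reads of CTR GFP-positive cells, 14.9% (14.91% to 14.93%) in RA GFP-positive cells, 7.48% (7.454% to 7.503%) in CTR GFP-negative cells and 5.56% (5.55% to 5.57%) in RA GFP-negative cells. Both GFP-positive libraries thus lay above both GFP-negative ones. The share was 1.88 times (1.88 to 1.89) as high in GFP-positive as in GFP-negative cells of the control culture and 2.68 times (2.68 to 2.69) after RA. Between cultures, RA was 1.06 times CTR among GFP-positive and 0.743 times CTR among GFP-negative cells. The 13 mRNAs made up 81.4% to 85.2% of the mitochondrial reads, the rRNAs 14.7% to 18.5% and the tRNAs 0.0346% to 0.0562%. Bulk libraries cannot tell a smaller number of mitochondria-rich cells from less mitochondrial RNA per cell.

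**Figure D1:**
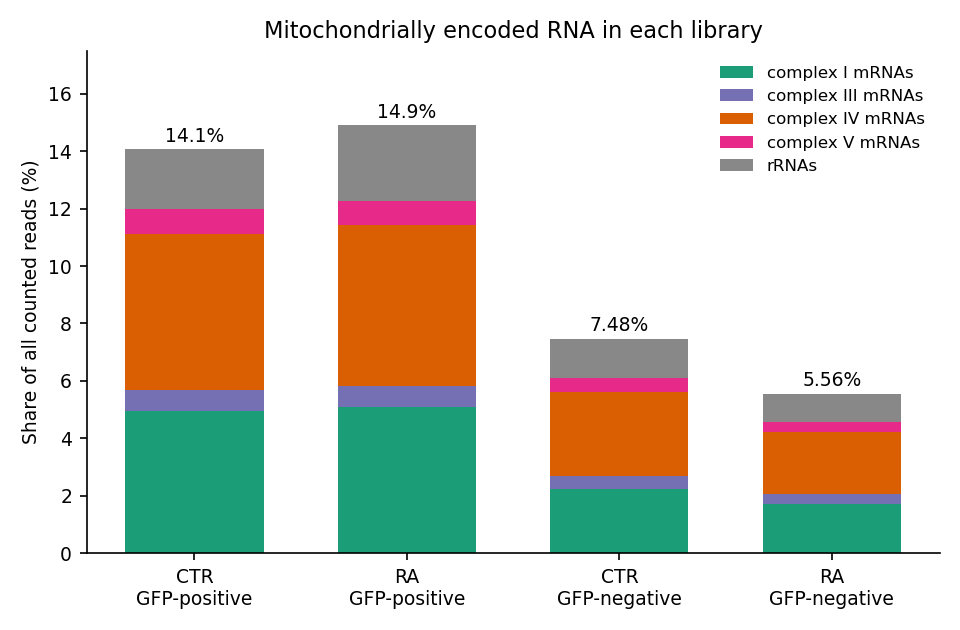
Share of all counted reads (%, bars stacked from 0) taken by the mitochondrial mRNAs of each respiratory complex and by the rRNAs in each library, with the total above the bar. The totals are 14.1% and 14.9% in the GFP-positive libraries and 7.48% and 5.56% in the GFP-negative libraries.

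Mitochondrial genes were among the most abundant in every library. MT-CO1, the catalytic core of cytochrome c oxidase, had the most reads of all genes in 3 libraries and ranked 3 in RA GFP-negative cells. Of the 20 genes with the most reads, 10 in CTR GFP-positive, 11 in RA GFP-positive and 10 in CTR GFP-negative cells were mitochondrial, and 7 in RA GFP-negative cells. Per kilobase, MT-CO1 was also the highest mRNA in every library, from 9405 CPM per kilobase in RA GFP-negative to 25708 in RA GFP-positive cells, and MT-CO3 came next. The lowest per kilobase was MT-ATP8 in 3 libraries (747 to 2300 CPM per kilobase) and MT-ND6 in CTR GFP-negative cells (1527). The highest mRNA exceeded the lowest by 10.3 to 13.3 times in the 3 deep libraries and by 7.57 times in CTR GFP-negative cells.

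**Figure D2:**
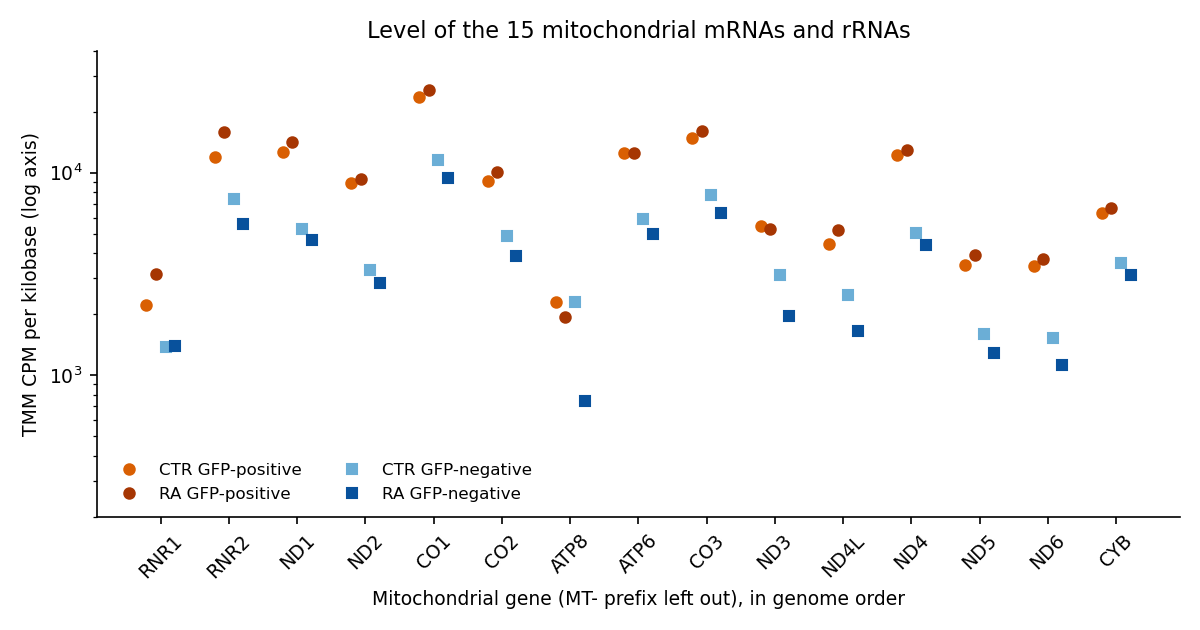
Level of the 13 mRNAs and 2 rRNAs in TMM CPM per kilobase (log axis) in each of the 4 libraries, in genome order. The 4 libraries follow the same profile with MT-CO1 on top, and both GFP-positive libraries (circles) lie above both GFP-negative ones (squares) except at MT-ATP8.

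The subunits of complex I (NADH dehydrogenase) showed the largest difference between the sorted fractions of the 4 complexes. Their 7 mRNAs summed to 49539.6 CPM in CTR GFP-positive and 20888 CPM in CTR GFP-negative cells, a ratio of 2.37 (2.36 to 2.39), and to 53585 and 17562 CPM after RA, a ratio of 3.05 (3.04 to 3.06). MT-ND1 had 12139 (CTR GFP-positive), 13579 (RA GFP-positive), 5017 (CTR GFP-negative) and 4466 CPM (RA GFP-negative). MT-ND2 had 9309, 9669, 3453 and 2979 CPM in the same order and the largest ratio of the mRNAs in the control culture, 2.70 (2.65 to 2.74). MT-ND4, the complex I mRNA with the most reads, had 16745, 17870.1, 6908 and 6042 CPM. For these 3 genes the 2 GFP-positive values lay close to each other and well above the GFP-negative ones. MT-ND5 had 6317, 7124, 2896 and 2321 CPM. MT-ND6, from the light strand, had 1811, 1975, 802 and 586 CPM and the largest ratio of the mRNAs after RA, 3.37 (3.31 to 3.43). Counting was without strand, so reads of MT-ND6 and reads of the opposite strand cannot be told apart. The short mRNAs MT-ND3 (1896, 1815, 1079 and 677 CPM) and MT-ND4L (1323, 1553, 734 and 491 CPM) also lay higher in GFP-positive cells, with ratios of 1.76 and 1.80 in the control culture and of 2.68 and 3.16 after RA.

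The subunits of complexes III and IV lay higher in GFP-positive cells by smaller ratios. MT-CYB, cytochrome b and the only mitochondrial subunit of complex III, had 7199 (CTR GFP-positive), 7640.1 (RA GFP-positive), 4071 (CTR GFP-negative) and 3566 CPM (RA GFP-negative). Its ratios, 1.77 (1.74 to 1.79) in the control culture and 2.14 (2.13 to 2.16) after RA, were the smallest of the 10 longer mRNAs in both cultures. The 3 subunits of cytochrome c oxidase (complex IV) rank by the same order of libraries. MT-CO1 had 36412, 39641, 17812 and 14503 CPM, MT-CO2 had 6209.9, 6869.8, 3327 and 2637 CPM, and MT-CO3 had 11662, 12535, 6099 and 4933 CPM. Their summed ratio between fractions was 1.99 (1.98 to 2.004) in the control culture and 2.68 (2.67 to 2.68) after RA.

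Complex V, the ATP synthase, held the exception. MT-ATP6, its proton channel subunit, had 8472 (CTR GFP-positive), 8484 (RA GFP-positive), 4011 (CTR GFP-negative) and 3379 CPM (RA GFP-negative), with ratios of 2.11 and 2.51 between fractions. MT-ATP8 had 476, 399, 478 and 155 CPM. It was level between fractions of the control culture (ratio 0.996, 0.953 to 1.04) and 2.58 times (2.49 to 2.68) as high in GFP-positive cells after RA. Its level was lowest in RA GFP-negative cells and lay between 399 and 478 CPM in the other libraries, that of CTR GFP-negative cells resting on 2244 reads. The scaling sets the sign of the MT-ATP8 ratio in the control culture, which lay just above 1 when scaled on nuclear genes alone (log2 0.03) and below 1 with the other scalings tried.

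Over the 13 mRNAs, the median log2 difference between GFP-positive and GFP-negative cells was 1.03 in the control culture and 1.45 after RA, against 0.08 and 0.02 over all genes that reached 10 CPM in one or both libraries. In the control culture 7 of 13 mRNAs were at least 2-fold higher in GFP-positive cells, where 12.7% of 11806 genes were. This count was 5 with library size alone and 6 after thinning to equal depth. None was 2-fold lower, where 13.8% of genes were. After RA 13 of 13 were at least 2-fold higher, where 10.5% of 11850 genes were, and none was 2-fold lower, where 13% of genes were. The 13 mRNAs share their transcripts and are not independent of each other. A similar direction was seen for MALAT1 and NEAT1, nuclear retained RNAs, which were 1.47 and 1.24 times as high in GFP-positive cells of the control culture and 2.31 and 1.93 times after RA. Of 8 stroma markers 7 were lower in GFP-positive cells of each culture, with summed levels of 4882 (CTR) and 17349 CPM (RA) in GFP-positive against 38354 and 71688 CPM in GFP-negative cells. PDGFRA was 1.51 and 2.13 times as high in GFP-positive cells. The stress genes FOS, JUN, EGR1, ATF3, DDIT3, HSPA1A and HSPA1B with MALAT1 and NEAT1 summed to 1.16 and 1.20 times as much in GFP-positive cells, and 5 of 9 were higher in each culture. Nerve and eye markers summed to 82.0 (CTR GFP-positive), 106 (RA GFP-positive), 293 (CTR GFP-negative) and 119 CPM (RA GFP-negative), and 6 of 7 were lower in GFP-positive cells of each culture, with medians of -2.98 (CTR) and -0.76 (RA) on the log2 scale. MITF, the largest part of the GFP-positive sums, was 2.73 and 4.63 times as high in GFP-positive cells. Gut and liver markers summed to 12.98, 43.9, 83.7 and 738 CPM in this order, with median log2 differences between fractions of -0.14 in the control culture and -3.26 after RA. The control value was -4.11 with a filter of 10 CPM, which TTR alone passed. Of RNAs without a poly(A) tail, RN7SL2 had 16.1, 10.5, 12.6 and 15.2 CPM and RN7SK 9.67, 4.49, 2.13 and 8.89 CPM in this order. The part of these genes in the mitochondrial difference was not tested.

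RA was compared with CTR within each fraction, and these comparisons use the same 4 libraries as those above. In GFP-positive cells the median log2 difference over the 13 mRNAs was 0.10, against 0.02 over all genes, and ratios ran from 0.839 (MT-ATP8) to 1.17 (MT-ND4L). None was 2-fold higher or lower, where 4.45% and 1.86% of 11186 genes were. With TMM scaling 11 of 13 mRNAs were higher with RA, where 52.2% of all genes were, and MT-ATP8 and MT-ND3 lower, and with library size alone 9 of 13 were higher and the median was 0.03. Both rRNAs had higher ratios than any of the 13 mRNAs in this fraction, with 1.43 times (1.41 to 1.44) for MT-RNR1 and 1.32 times (1.319 to 1.329) for MT-RNR2. In the same comparison 8 of 8 stroma markers were higher with RA (median log2 1.93) and 8 of 10 cardiomyocyte markers lower (median log2 -0.39). Gut and liver markers were higher for 6 of 7 (median log2 0.87), AFP at 22.6 against 0.279 CPM, and TTR was lower. Nerve and eye markers were higher for 3 of 7, STMN2 at 42.5 against 1.26 CPM, and lower for 4 (median log2 -0.07). Of the 9 stress and RNA quality genes 7 were higher, among them ATF3 (3.18 times), JUN (2.70 times) and FOS (2.06 times). Their part in the mitochondrial levels was not tested.

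In GFP-negative cells all 13 mRNAs were lower with RA, and of 11606 genes 57.5% were higher. The median log2 difference was -0.31, against 0.08 over all genes, and the ratio ran from 0.324 (MT-ATP8, interval 0.307 to 0.341) to 0.890 (MT-ND1, 0.878 to 0.903). MT-ATP8 was at least 2-fold lower, 1 of 13 mRNAs where 3.58% of 11606 genes were, and none was 2-fold higher, where 5.42% of genes were. With a filter of 1 CPM, 12.6% of 18642 genes were 2-fold lower and 11.7% higher. The 13 lay lower under every scaling tried, with medians from -0.44 (library size alone) to -0.28 (nuclear genes alone). Without the 3 shortest mRNAs, a choice made after seeing the data, the median was -0.27. In the same comparison the cardiomyocyte markers summed to 0.538 times their CTR level and 10 of 10 were lower, the stroma markers to 1.87 times, and the gut and liver markers to 738 against 83.7 CPM. Of the 7 gut and liver markers 6 were higher with RA (median log2 4.44), AFP at 465 against 2.98 CPM, and TTR was lower, at 11.7 against 73.0 CPM. Of the 7 nerve and eye markers 6 were lower with RA (median log2 -1.18), PAX6 at 8.50 against 96.3 CPM and DCT at 7.01 against 109 CPM, and STMN2 was higher, at 72.7 against 16.8 CPM. Of the 9 stress and RNA quality genes, 5 were higher with RA (all genes, 57.5%), namely JUN (2.53 times), ATF3 (1.94 times), FOS (1.92 times), EGR1 (1.86 times) and DDIT3 (1.13 times). The other 4 were lower, MALAT1 at 0.546, NEAT1 at 0.665, HSPA1A at 0.737 and HSPA1B at 0.971 times. Their part in the lower mitochondrial levels was not tested.

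**Figure D3:**
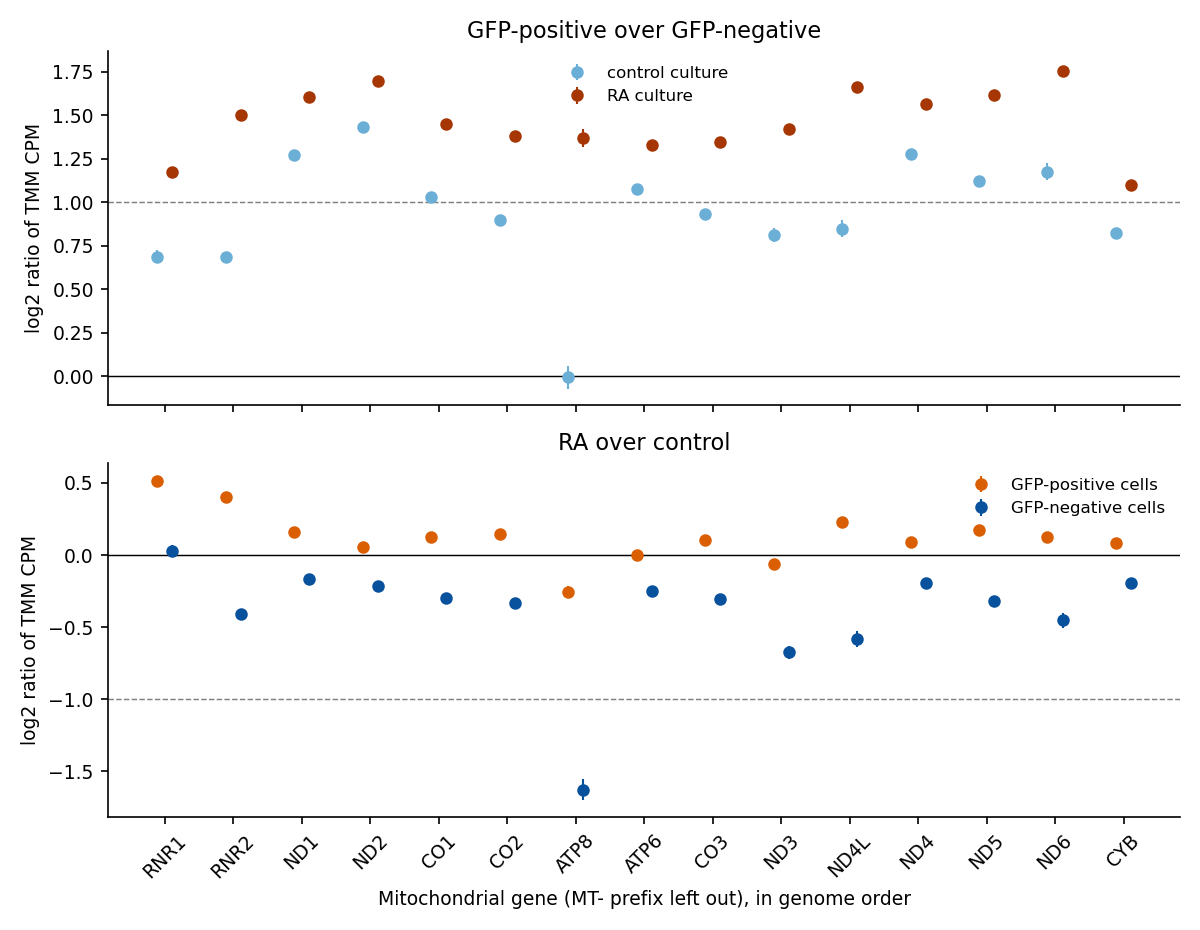
Log2 ratio of TMM CPM of each mRNA and rRNA, GFP-positive over GFP-negative (top; dashed line, 2-fold higher) and RA over control (bottom; dashed line, 2-fold lower), with 95% counting intervals, mostly smaller than the points. All genes but MT-ATP8 in the control culture lie above 0 at the top, and at the bottom all 13 mRNAs lie below 0 in GFP-negative cells and near 0 in GFP-positive cells.

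The rRNAs did not follow the mRNAs in proportion. MT-RNR1, the 12S rRNA of the small mitoribosome subunit, had 2107 (CTR GFP-positive), 3009 (RA GFP-positive), 1309 (CTR GFP-negative) and 1335 CPM (RA GFP-negative). MT-RNR2, the 16S rRNA of the large subunit, had 18642, 24677, 11595 and 8724 CPM. MT-RNR1 was thus level between the GFP-negative libraries (ratio 1.02, 0.993 to 1.05), where MT-RNR2 was lower with RA (0.752, 0.745 to 0.759). The rRNA reads per mRNA read were 0.173 in CTR GFP-positive cells, below 0.214 in RA GFP-positive, 0.228 in CTR GFP-negative and 0.215 in RA GFP-negative cells. Per base, MT-RNR2 exceeded MT-RNR1 by 5.41, 5.02, 5.42 and 4.00 times in this order, so that RA GFP-negative cells had the lowest ratio of the 2 rRNAs. Whether the libraries were selected for poly(A) RNA or cleared of rRNA is not given in the sources used here, and the part of that step was not tested.

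The make-up of the mRNA pool was similar in the 4 libraries. MT-CO1 took 30.4% (CTR GFP-positive), 30.7% (RA GFP-positive), 31.4% (CTR GFP-negative) and 31.03% (RA GFP-negative) of the reads of the 13 mRNAs. Complex I took 41.3% and 41.5% in the GFP-positive libraries and 36.8% and 37.6% in the GFP-negative ones, and MT-CYB 6.0% and 5.92% against 7.18% and 7.63%. Between RA and CTR GFP-positive cells, the shares of the 10 longer mRNAs stayed within 0.930 and 1.05 times each other, and those of the 3 shortest were 0.779 (MT-ATP8), 1.09 (MT-ND4L) and 0.889 times (MT-ND3, 346 bases). Between fractions of the control culture the share departed most for MT-ATP8 (0.471 times), followed by MT-ND2 (1.27), MT-ND3 (0.830), MT-CYB (0.836) and MT-ND4L (0.851). The shares of the 3 shortest mRNAs were highest in CTR GFP-negative cells, as were those of MT-CO1, MT-CO2 and MT-CO3. MT-ATP8 took 0.843% (0.809% to 0.879%) of the mRNA reads there, against 0.397%, 0.309% and 0.331% in CTR GFP-positive, RA GFP-positive and RA GFP-negative cells. MT-ND3 took 1.90% against 1.40% to 1.58%, and MT-ND4L 1.30% against 1.05% to 1.20%. From CTR to RA in GFP-negative cells the shares of these 3 were 0.393, 0.761 and 0.811 times as high for MT-ATP8, MT-ND3 and MT-ND4L, while those of the 10 longer mRNAs lay between 0.887 and 1.08 times.

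These 3 mRNAs are the ones with the least room for a fragment between their neighbours, and fragment lengths of the libraries are absent from the sources used here. Among nuclear protein-coding genes the shortest were not lower with RA in GFP-negative cells. Their median log2 difference was 0.36 for 14 genes with fewer than 600 exon bases and 0.04 for 7785 genes with at least 4000. Most nuclear genes border bases of no gene, so that counting at their ends differs from that of mitochondrial genes. The part of fragment length was not tested.

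**Figure D4:**
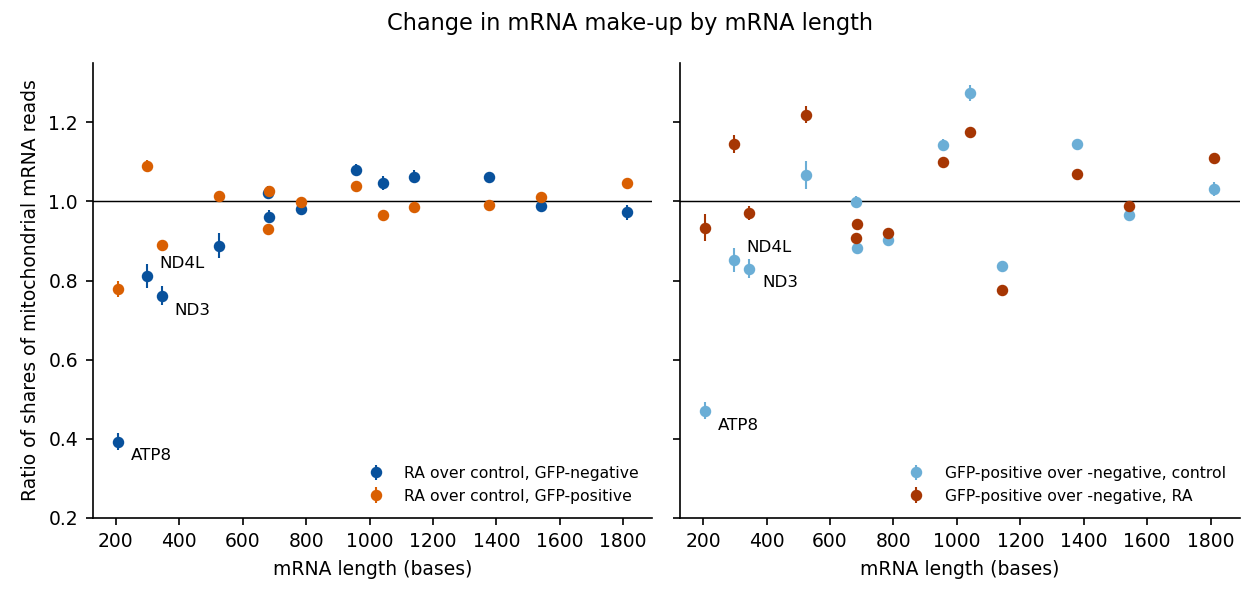
Ratio of each mRNA's share of the mitochondrial mRNA reads against its length in bases, RA over control (left) and GFP-positive over GFP-negative (right), with 95% counting intervals. MT-ATP8 is lowest, at 0.393 and 0.471, in both comparisons that use the CTR GFP-negative library, in which MT-ND4L, MT-ND3, MT-CO1, MT-CO2 and MT-CO3 also lie below 1.

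Few reads fell on tRNAs, the adaptors of mitochondrial translation. Of 22 tRNA genes 5 had reads, and their full sequences are given, 5′ to 3′, since they are the only tRNA genes with a counted read.
MT-TP: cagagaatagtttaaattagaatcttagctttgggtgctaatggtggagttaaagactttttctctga
MT-TF: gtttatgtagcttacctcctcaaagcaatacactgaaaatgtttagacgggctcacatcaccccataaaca
MT-TY: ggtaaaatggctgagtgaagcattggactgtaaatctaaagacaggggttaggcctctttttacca
MT-TL1: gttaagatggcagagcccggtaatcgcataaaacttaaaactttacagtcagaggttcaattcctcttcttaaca
MT-TC: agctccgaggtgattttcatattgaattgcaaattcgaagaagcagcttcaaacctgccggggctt
MT-TP (tRNA for proline, chrM:15956-16023, minus strand) held nearly all of them, with 2237 (CTR GFP-positive), 1641 (RA GFP-positive), 113 (CTR GFP-negative) and 592 reads (RA GFP-negative), or 78.1, 61.4, 24.1 and 23.1 CPM. It was 3.24 times (2.68 to 3.95) as high in GFP-positive cells of the control culture and 2.66 times (2.42 to 2.93) after RA, the direction of the mRNAs. Between cultures it was 0.786 times (0.737 to 0.838) as high with RA among GFP-positive cells. The interval of its ratio among GFP-negative cells, 0.783 to 1.18, included 1. MT-TF (phenylalanine, chrM:577-647) had 25, 25, 0 and 4 reads, MT-TY (tyrosine, chrM:5826-5891) 4, 11, 0 and 3, MT-TL1 (leucine, chrM:3230-3304) 2, 3, 0 and 0, and MT-TC (cysteine, chrM:5761-5826) 1, 0, 0 and 0. The other 17 had no read in any library.

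A tRNA gene together with the adjoining bases of no gene spans 77 to 647 bases for the 5 with reads, at or above the read length of 75 bases, whereas 13 of the 17 without reads span fewer than 75 and 4 span 75 to 105 (MT-TW, MT-TA, MT-TN and MT-TK). For these 4 a floor of 3 reads corresponds to 0.105 to 0.117 CPM in the deep libraries and 0.639 CPM in the CTR GFP-negative one, and for the 13 no limit is given. MT-TP and MT-TF border the non-coding control region, with 546 and 576 free bases at their side. An untrimmed read of 75 bases is longer than either gene (68 and 71 bases). A count of MT-TP or MT-TF can therefore include reads that extend into these bases, and mature tRNA and its precursors cannot be told apart.

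The nuclear subunits of the respiratory complexes, which must match the mitochondrial ones in assembly, lay higher in GFP-positive cells too, by smaller ratios. Of 81 nuclear subunit genes with at least 4 reads, 77 were higher in GFP-positive cells of the control culture and 18 at least 2-fold, and after RA 77 of 81 were higher and 17 at least 2-fold. Of all genes 54.6% and 51.5% were higher, and 12.7% and 10.5% at least 2-fold. In each culture 1 subunit was at least 2-fold lower, where 13.8% and 13% of genes were. Their median log2 difference was 0.63 and 0.61. In sum they were 1.65 times (1.63 to 1.67) as high in GFP-positive cells of the control culture and 1.63 times (1.62 to 1.64) after RA, against 2.12 times (2.11 to 2.12) and 2.76 times (2.76 to 2.77) for the mitochondrial mRNAs. The gap was widest in complex I, where 36 nuclear genes summed to ratios of 1.55 and 1.54 and the 7 mitochondrial mRNAs to 2.37 and 3.05. It was narrowest in complex III, at 1.57 against 1.77 and 1.62 against 2.14.

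**Figure D5:**
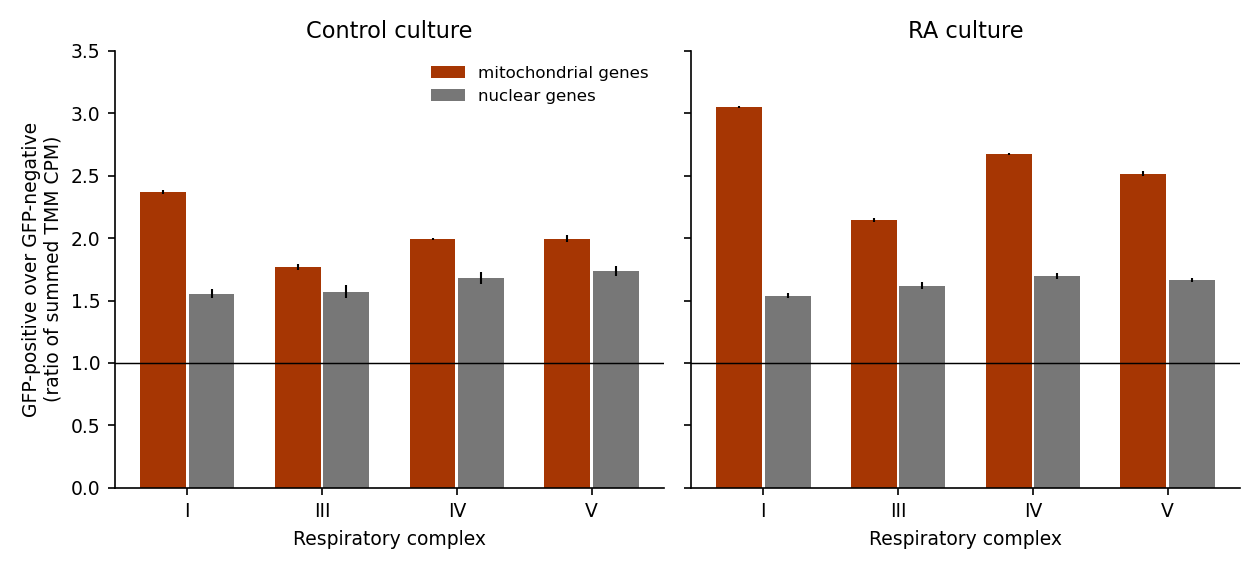
Ratio of summed TMM CPM between GFP-positive and GFP-negative cells (bars from 0; 95% counting intervals) for the mitochondrial and the nuclear genes of each respiratory complex, in the control (left) and the RA culture (right). The mitochondrial bar is the higher in each complex, from 1.77 in complex III of the control culture to 3.05 in complex I after RA, while nuclear bars stay between 1.54 and 1.74.

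Mitochondrial mRNA per nuclear subunit mRNA, as a ratio of CPM sums, was 12.7 in CTR GFP-positive, 12.9 in RA GFP-positive, 9.89 in CTR GFP-negative and 7.59 in RA GFP-negative cells. The GFP-positive libraries were alike in this ratio and the GFP-negative ones were not. With RA in GFP-negative cells the nuclear subunits summed to 1.07 times (1.06 to 1.09) and the mitochondrial mRNAs to 0.824 times (0.821 to 0.828) their CTR level. Of 80 nuclear subunits 50 were higher, where 57.5% of all genes were. At least 2-fold higher were 3 (5.42% of all genes) and at least 2-fold lower was 1 (3.58%). In GFP-positive cells both sums were slightly higher with RA, 1.06 and 1.08 times. Here and in the lists that follow, the highest and lowest members are given among genes that reached 10 CPM in one or both libraries compared. The largest difference among nuclear subunits was that of COX6A2, the subunit isoform of heart and skeletal muscle, with 17.9 (CTR GFP-positive), 20.4 (RA GFP-positive), 0 (CTR GFP-negative) and 0.351 CPM (RA GFP-negative). In the control culture, with 514 reads against 0, the lower limit of the interval was 22.8-fold. After RA the ratio was 58.1 times (30.4 to 128), where 9 reads stood in GFP-negative cells. COX7A1, another muscle isoform, was named after its values were seen and had 30.5, 44.1, 5.75 and 5.11 CPM. The lowest ratios were those of COX6B2 (log2 -2.79) in the control culture and of ATP5F1E (log2 -0.25) after RA. COX6B2 stayed below 10 CPM after RA, with 2.39 CPM in GFP-positive against 9.16 CPM in GFP-negative cells (0.261 times, 0.195 to 0.346).

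The nuclear genes for transcription of mitochondrial DNA had varied ratios between fractions. Of 8 transcription genes, 6 were higher in GFP-positive cells of the control culture and 7 after RA, with medians of 0.29 and 0.25 on the log2 scale, the first of which was 0.10 with a filter of 10 CPM. Of all genes 54.6% and 51.5% were higher. In each culture 2 of the 8 were at least 2-fold higher, where 12.7% (CTR) and 10.5% (RA) of genes were. POLRMT, the mitochondrial RNA polymerase, had 98.1 (CTR GFP-positive), 97.9 (RA GFP-positive), 72.8 (CTR GFP-negative) and 74.5 CPM (RA GFP-negative), ratios of 1.347 (1.20 to 1.51) and 1.31 (1.24 to 1.40) between fractions. TFAM, which packages mitochondrial DNA and starts its transcription, had 47.9, 40.2, 42.8 and 36.6 CPM, ratios of 1.12 (0.965 to 1.30) and 1.10 (1.01 to 1.20). Neither was 2-fold higher in either culture. TFB2M, the initiation factor, was lower in GFP-positive cells, at 0.716 and 0.773 times. MTERF2, a member of the mitochondrial termination factor family, had the highest ratio of the list, 4.96 times (3.86 to 6.47) and 2.92 times (2.62 to 3.25). TEFM, the elongation factor, was 2.74 and 2.03 times as high, from 2.56 and 3.04 CPM in GFP-negative cells, and MTERF1 1.89 and 1.17 times. With RA in GFP-negative cells, POLRMT was 1.02 times (0.911 to 1.15) and TFAM 0.854 times (0.733 to 1.00) its CTR level. The part of these transcription genes in the mitochondrial levels was not tested.

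Genes of mitochondrial RNA processing and decay were higher in GFP-positive cells for 24 of 27 in the control culture and 20 of 27 after RA (all genes, 54.6% and 51.5%), with medians of 0.31 and 0.15. LRPPRC, which stabilises mitochondrial mRNAs, had 174 (CTR GFP-positive), 143 (RA GFP-positive), 112 (CTR GFP-negative) and 145 CPM (RA GFP-negative), and its partner SLIRP 24.5, 27.3, 23.6 and 24.4 CPM. LRPPRC was thus 1.56 times (1.43 to 1.71) as high in GFP-positive cells of the control culture and 0.987 times (0.943 to 1.03) after RA. ELAC2, which cuts the tRNA 3′ ends, was 1.80 and 1.55 times as high, and TRMT10C, a subunit of the enzyme for the 5′ ends, 1.501 and 0.852 times. FASTKD2 and FASTKD5, RNA granule proteins, were 1.47 and 1.32 times as high in the control culture and 1.11 and 1.16 times after RA. TFB1M, which methylates the 12S rRNA, had the highest ratio of the control culture (3.12 times, 2.09 to 4.87) and TRIT1, which modifies tRNAs, that after RA (log2 0.83). REXO2, which degrades short RNA fragments, was lowest in both (0.566 times in each).

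Of 13 replication genes, 8 were higher in GFP-positive cells of the control culture (median 0.16) and 5 after RA (median -0.08). The shares of all genes were 54.6% and 51.5%. POLG, the mitochondrial DNA polymerase, was 1.12 and 0.945 times as high, SSBP1, which binds single-stranded DNA, 1.16 and 0.943 times, and TWNK, the helicase, 1.54 and 0.970 times. Highest were the accessory subunit POLG2 in the control culture (log2 1.56) and RNASEH1 after RA (log2 0.48), and TOP1MT, the mitochondrial topoisomerase, was lowest in both cultures (0.402 and 0.390 times). Among 11 regulators of mitochondrial biogenesis, 10 were higher in GFP-positive cells of the control culture and 5 at least 2-fold, and 8 and 3 after RA, with medians of 0.43 and 0.17. Of all genes 54.6% and 51.5% were higher and 12.7% and 10.5% at least 2-fold. PPARGC1A, the coactivator PGC-1α, had 46.8 (CTR GFP-positive), 69.5 (RA GFP-positive), 10.0 (CTR GFP-negative) and 5.96 CPM (RA GFP-negative). ESRRG, the receptor ERRγ that acts with it, had 49.1, 51.5, 9.58 and 9.27 CPM. Among members that reached 10 CPM these 2 genes had the highest ratios, at 4.68 (3.496 to 6.39) and 5.13 times (3.81 to 7.06) in the control culture and 11.7 (9.88 to 13.8) and 5.56 times (4.84 to 6.402) after RA. With RA PPARGC1A was 1.48 times (1.38 to 1.59) as high among GFP-positive cells and 0.596 times (0.427 to 0.845) among GFP-negative ones. ESRRG was 1.05 and 0.968 times as high. The part of these regulators in the mitochondrial levels was not tested. ESRRA was 2.53 and 1.69 times as high in GFP-positive cells, PPARGC1B 1.37 and 1.14 times, NRF1 1.32 and 1.06 times, and GABPA 1.05 and 0.868 times. The lowest were PPRC1 in the control culture (log2 -0.02) and YY1 after RA (log2 -0.30). PPARGC1B was lower with RA in both fractions (0.441 and 0.530 times).

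Genes of mitochondrial translation lay between these lists. Of 76 mitoribosome proteins, which assemble on the rRNAs described above, 62 were higher in GFP-positive cells of the control culture and 53 after RA (all genes, 54.6% and 51.5%), with medians of 0.36 and 0.23. MRPS31 was highest in the control culture (4.14 times, 2.86 to 6.22) and MRPL15 after RA (log2 0.95), and MRPL19 (log2 -0.62) and MRPL54 (log2 -0.52) were lowest. Of 17 mitochondrial aminoacyl-tRNA synthetases, which charge the tRNAs, 13 and 12 were higher beside the same shares of all genes, with medians of 0.34 and 0.11, TARS2 was highest in both (log2 0.79 and 0.71), and CARS2 (log2 -0.43) and YARS2 (log2 -0.63) were lowest. With RA in GFP-negative cells, where the mitochondrial mRNAs were lower, the medians of these lists were 0.19 for the mitoribosome, 0.08 for the synthetases, 0.11 for transcription, 0.14 for RNA processing, 0.29 for replication and 0.19 for biogenesis, against 0.08 over all genes. The median of the mitochondrial mRNAs was -0.31. The synthetases and transcription lay close to the median of all genes, and transcription was at -0.015 with a filter of 10 CPM.

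Single genes of these lists moved more between RA and CTR, and the CTR GFP-negative values of several rest on few reads. In GFP-negative cells the highest and lowest log2 differences were 0.34 (MTERF2) and -0.23 (MTERF4) for transcription, 0.98 (TRMT10C) and -0.75 (FASTKD1) for RNA processing, and 0.96 (POLG2) and -0.44 (RNASEH1) for replication. They were 0.66 (ESRRA) and -0.83 (PPARGC1B) for biogenesis, 1.48 (MRPS31) and -0.51 (MRPS6) for the mitoribosome, 0.77 (RARS2) and -0.45 (AARS2) for the synthetases and 1.10 (NDUFA8) and -1.75 (COX6B2) for nuclear subunits. POLG2 had 25, MRPS31 29, MTERF2 63 and NDUFA8 66 reads in the CTR GFP-negative library. In GFP-positive cells the same extremes were 0.43 (MTERF1) and -0.39 (MTERF2), 0.47 (PTCD1) and -0.75 (TFB1M), and 0.24 (DGUOK) and -0.53 (POLG2). They were 0.56 (PPARGC1A) and -1.10 (PPARGC1B), 0.51 (MRPS2) and -0.45 (MRPS25), and 0.54 (UQCRQ) and -0.27 (NDUFS6) for biogenesis, the mitoribosome and nuclear subunits. The lowest of the synthetases was HARS2 (-0.46). Among GFP-positive cells the list medians were 0.02 for transcription, -0.04 for RNA processing, -0.23 for replication, 0.07 for biogenesis, 0.02 for the mitoribosome, -0.20 for the synthetases and 0.12 for nuclear subunits, against 0.10 for the mitochondrial mRNAs.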

How the data were processed

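RNA-seq of 4 populations of NKX2.5:GFP hESC cultures was analysed, 1 library per group. The authors trimmed paired reads of 75 bases, mapped them to unique positions of a custom hg19 (GSNAP), sorted them (SAMtools 0.1.18) and counted them per Ensembl gene (HTSeq 0.6.1p1, no strand, intersection-nonempty), per the study's methods and the submitters' processing notes. The deposited values are raw counts per gene, with no normalization. The sources used here do not name the Ensembl release. The uniqueness filter removes reads that fit a nuclear copy of mitochondrial DNA equally well.

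Of 60234 identifiers 55538 (92.2%) matched a gene symbol. Counts were scaled to CPM with the TMM factors of edgeR 4.0.16 in R 4.3.3 (0.951 RA GFP-positive, 1.00 CTR GFP-positive, 0.979 RA GFP-negative, 1.07 CTR GFP-negative), and libraries were compared as differences of log2(CPM + 1), which understate changes of low genes. Ratios are ratios of CPM, and 95% intervals are Clopper-Pearson for shares and ratios. They cover counting error only, as amplified reads are not independent molecules. No p-value was computed. Calls are 2-fold ratios, set beside all genes reaching 10 CPM in one or both libraries compared. The nuclear lists are summarised over members reaching 4 reads in one or both libraries. NDUFA4 was counted with complex IV. Coordinates and sequences are those of GENCODE lifted to GRCh37. The ratio and its interval were checked on simulated counts.

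The members, the gene lists and the rules were chosen with earlier results of these data known. Named were all mitochondrial genes, from each nuclear list the highest and lowest difference among members reaching 10 CPM, and 20 genes of mitochondrial transcription, RNA processing, replication and biogenesis. The lists were mitochondrial transcription, RNA processing, replication, biogenesis, mitoribosome, synthetases and nuclear subunits, with markers of cardiomyocytes, stroma, gut and liver, and nerve and eye, and genes of stress and RNA quality. NDUFA4L2, a paralogue, and ATP5IF1, an inhibitor, were left out of the nuclear subunits after values had been seen. The sums per complex, the subunit COX7A1 and the group of the 3 shortest mRNAs were also chosen after seeing values. RN7SL1, RMRP and RPPH1 were not analysed here. The highest difference of the synthetases between RA and CTR in GFP-positive cells is not reported here. Alternatives were library size alone, the size factors of DESeq2 1.42.0, TMM on nuclear genes alone, other pseudocounts and thresholds, and thinning of each library to 4371101 reads. TMM on the 3 deep libraries alone was added after seeing the data.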

Additional observations from a re-analysis of the deposited data

Results flagged for a closer look

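The difference between RA and CTR had opposite signs in the sorted fractions for 11 of the 13 mRNAs and for MT-RNR2, which were higher with RA in GFP-positive and lower with RA in GFP-negative cells. Of 10385 genes that reached 10 CPM in a library of each fraction 18.8% had these signs. For MT-ATP6 the interval of the ratio in GFP-positive cells, 0.996 to 1.01, included 1. With 1 library per group this difference between fractions was not tested, and counts of such mRNAs ran from 9 to 11 over the scalings, pseudocounts and thinning tried. The RA difference in GFP-positive minus that in GFP-negative cells was 0.41 on the log2 scale for the median of the 13 mRNAs. For complex I it was 0.33 (MT-ND1), 0.27 (MT-ND2), 0.81 (MT-ND4L), 0.29 (MT-ND4), 0.49 (MT-ND5) and 0.58 (MT-ND6). It was 0.28 for MT-CYB, 0.42 for MT-CO1, 0.48 for MT-CO2, 0.41 for MT-CO3 and 0.25 for MT-ATP6. For MT-RNR2 it was 0.81. MT-ATP8 and MT-ND3 were lower with RA in both fractions.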

How the results depend on the processing

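The fractions were compared within each culture, a fit over fraction and culture was not run, and no library could be left out of a group. The mitochondrial shares of CTR GFP-positive, RA GFP-positive, CTR GFP-negative and RA GFP-negative cells were 12.01%, 12.3%, 6.09% and 4.58% without the rRNA genes. They were 14.1%, 14.98%, 7.51% and 5.58% with reads of nuclear copies added, and 14.6%, 15.7%, 7.97% and 6.10% without the 10 most abundant nuclear genes. After thinning they were 14.1% and 14.9% in the GFP-positive libraries. The median log2 difference of the 13 mRNAs between fractions was 0.93 (CTR) and 1.41 (RA) with library size alone, 1.06 (CTR) with nuclear genes alone, 1.44 (RA) with DESeq2 size factors, and 0.98 (CTR) and 1.44 (RA) after thinning. Between RA and CTR it was 0.031 (GFP-positive) and -0.44 (GFP-negative) with library size alone, 0.088 (GFP-positive) with DESeq2 size factors, -0.28 (GFP-negative) with nuclear genes alone and -0.35 (GFP-negative) after thinning. Without the 3 shortest mRNAs, added after seeing the data, the medians were 1.10, 1.51, 0.11 and -0.27. At a 1.5-fold threshold, 12 mRNAs were higher in GFP-positive cells of the control culture and 2 were lower with RA in GFP-negative cells. The share of all genes past 1.5-fold is not given here, so these counts cannot be set against it. No median or count of the 13 mRNAs changed sign. With a filter of 10 CPM the list medians between RA and CTR changed sign for nerve and eye markers in GFP-positive cells (-0.068 to 1.97) and for transcription in GFP-negative cells (0.11 to -0.015). Of single genes, MT-RNR1 in GFP-negative cells was lower with RA with library size alone or after thinning. In GFP-positive cells MT-ATP6 was lower with RA with library size alone, DESeq2 size factors or nuclear genes alone, and MT-ND2 with library size alone. MT-ATP8 was higher in GFP-positive cells of the control culture with nuclear genes alone. With library size alone the median of all genes was -0.02 between fractions in each culture and -0.05 between RA and CTR in each fraction. The shallow CTR GFP-negative library limits both comparisons that use it, and no spread between cultures could be estimated.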

Other observations

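Nuclear copies of mitochondrial genes, 394 genes of the table, held reads equal to 0.428% (CTR GFP-positive), 0.436% (RA GFP-positive), 0.455% (CTR GFP-negative) and 0.419% (RA GFP-negative) of the mitochondrial reads. Their summed level was 1.90 times (1.80 to 2.01) as high in GFP-positive cells of the control culture and 2.88 times (2.79 to 2.96) after RA. With RA it was 1.14 times (1.11 to 1.16) the CTR level in GFP-positive cells and 0.752 times (0.710 to 0.796) in GFP-negative cells. The copy with the most reads was MTCO3P12, with 6839, 7981, 795 and 2276 reads in the order above. Whether the alignment split reads between these near-identical copies and the mitochondrial genes themselves was not tested.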
